A study of Drosophila melanogaster with 9 samples.

Results

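The 42AB locus of Drosophila melanogaster, on chromosome arm 2R, was cut into 2479 bins of 100 bp, and 442 of them were selected on their measured reads because these came mainly from the sense strand. A bin was kept when its mean level over 3 ovarian small RNA libraries was at least 10 reads per 1000000 miRNA reads (RPM) and at least 75% of that level lay on the sense strand. Of the 2479 bins, 1643 reached the level minimum. Besides the 442 sense bins, 460 of these were read mainly from the antisense strand (a sense share of at most 25%) and 741 were read from both strands. A further 836 bins were under the minimum, and 634 of these had no read in any library. Sense means the plus strand of the deposited 42AB sequence, not the orientation of any transposon copy in it. Bins are named by their first base, counted along that sequence, since the tables do not give its place on the chromosome arm. Because the level and the sense share chose the bins, both are given below as a description only. All levels below are in RPM.

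The libraries came from ovaries of 3 genotypes kept at 25°C, with 1 library each. BX2theta, P(TARGET) carries the BX2 array of P(lacW) transgenes in a piRNA-producing state acquired after culture at a higher temperature, together with the P(lacZ) reporter P(TARGET). BX2* carries the array in a piRNA-producing state that earlier work had set by maternal inheritance of piRNAs, and has no P(TARGET). BX2OFF, P(TARGET) carries the same array in the silent state, with the reporter. All 3 genotypes carry 42AB itself, which lies outside the array, and the BX2* library had been made for an earlier study. With 1 library per genotype no replicate check of any difference exists, genotype and library cannot be told apart, and no p-value is given. Intervals are 95% intervals that cover counting error only.

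42AB is the best known piRNA source of the fly germline. Its transcripts come from both strands through the heterochromatin proteins Rhino, Deadlock and Cutoff and the initiation factor Moonshiner, and they feed piRNAs to the Argonaute proteins Piwi, Aubergine and Argonaute 3. In the ping-pong cycle a piRNA guides the cut of a transcript of the opposite strand, which leaves the 5′ ends of the paired piRNAs 10 nt apart in overlap. Transcripts can also be cut into piRNAs one after another along the same strand by the mitochondrial nuclease Zucchini.

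The tables held 2093549 reads on 42AB in BX2theta, 2499783 in BX2* and 2075646 in BX2OFF, 18 to 29 nt long and with no length given for each position. The minimum level of 10 stood for 39.5 reads in BX2theta, 38.8 in BX2* and 36.2 in BX2OFF. Of the cluster's reads, 51.2%, 51.6% and 51.01% were sense in BX2theta, BX2* and BX2OFF.

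The 442 sense bins made up 17.8% of all bins and held 36.1% of the mean 42AB level and 63.9% of its sense level. In single libraries they held 35.58% of the 42AB reads in BX2theta (Wilson interval 35.52 to 35.65%), 37.12% in BX2* (37.06 to 37.18%) and 35.33% in BX2OFF (35.26 to 35.39%). Their median level was 238 RPM, with a range of 10.3 to 5150, against a median of 168 in the antisense bins and 116 in the bins read from both strands. The level was uneven among the members: the 10 highest bins held 16.7% of it, the 44 highest 45.0% and the lower 221 held 10.15%. A level of 1000 or more was reached by 55 sense bins.

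The sense share did not fall into separate classes. Over the 1643 bins it was spread from 0 to 100% with 63 to 119 bins in every step of 5 points, so the limit of 75% cuts a continuum. The most one-sided step was also the fullest, with 119 bins at a sense share of 95% or more. At 99% or more there were 33 bins, and 15 bins had no antisense read in any library. Just inside the share limit lay bin 11400 (level 489, sense share 75.03%), bin 97500 (114, 75.04%) and bin 232000 (17.7, 75.09%). Just outside it lay bin 15000 (131, 74.93%), bin 230600 (76.4, 74.92%) and bin 32700 (106, 74.88%). At the level limit, bins 159400, 178700 and 77200 had levels of 10.26, 10.27 and 10.31, while bins 87100, 193900 and 165700 stayed out at 9.785, 9.62 and 8.73 with sense shares of 97.2%, 93.6% and 98.1%.

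The members were not spread evenly along the cluster. Between bases 73000 and 88999, 115 of the 152 bins over the minimum were sense bins, 34 were read from both strands and 3 were antisense bins, although the cluster held 457 antisense bins elsewhere. This region held 26.02% of the members and 30.9% of their level. From 80000 to 89999 there was no antisense bin at all among 85 bins. The sense share of all reads between 73000 and 88999 was 84.1% in BX2theta, 88.9% in BX2* and 85.1% in BX2OFF. The same 3 libraries chose the bins, so these shares are a description only. The borders of the region were set after seeing the values.

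Over the whole cluster 26.9% of the bins over the minimum were sense bins. The 10 kb from 200000 held 49 sense bins of 97 (50.5%) and 21.3% of the members' level, more than any other 10 kb segment. The 10 kb from 180000 held 38 of 93 (40.9%) and 8.88% of the level, and the 10 kb from 150000 held 9 of 21 (42.9%) and 0.748%. Bases 0 to 19999 held 18.3% of the level, but their 49 sense bins of 171 (28.7%) were close to the cluster's share. In contrast, the 10 kb from 40000 held 4 sense bins among 81, against 35 antisense bins, and the 10 kb from 140000 held none among 41, against 21 antisense bins. The 10 kb from 110000 had no bin over the minimum.

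**Figure D1:**
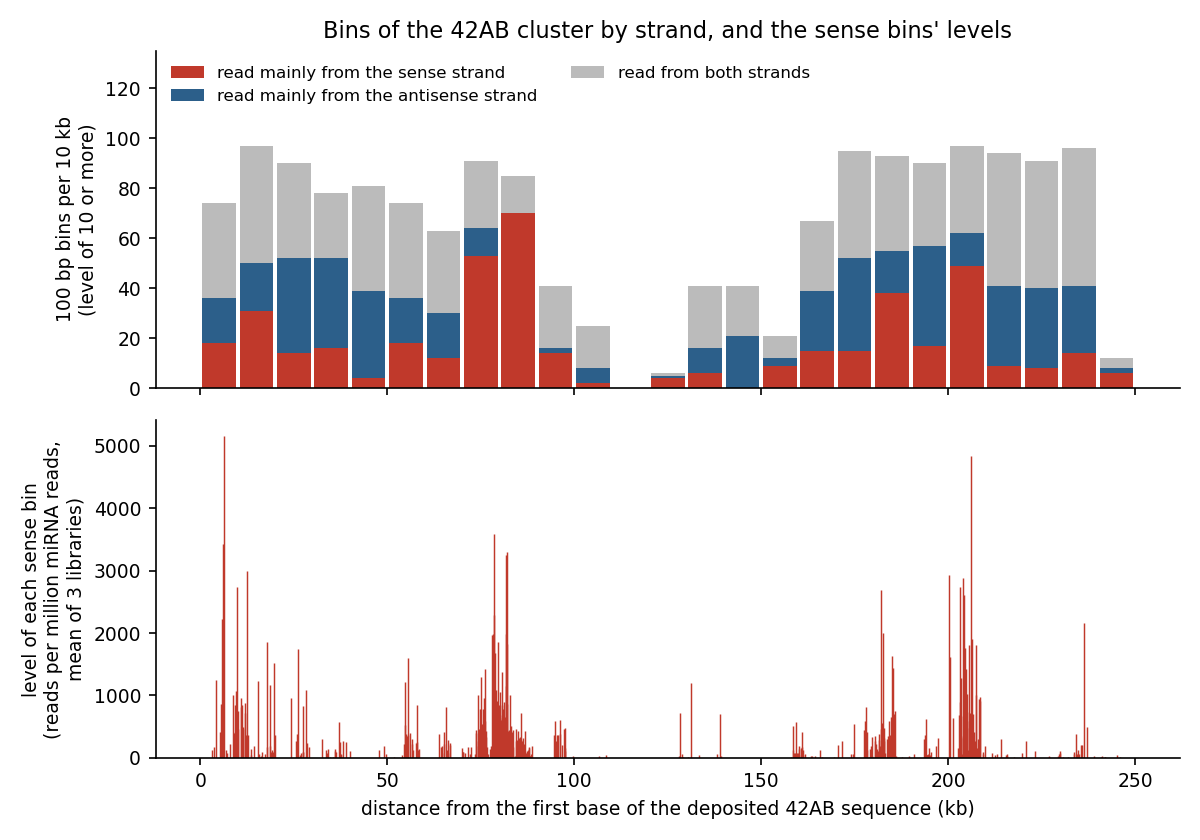
Upper panel: number of 100 bp bins with a level of 10 or more in each 10 kb of the 42AB sequence, stacked by class (sense, antisense, both strands), against the distance from its first base in kb. Lower panel: mean level of each of the 442 sense bins over the 3 libraries, in RPM. The segment from 80000 to 89999 has 70 sense bins and no antisense bin, and the highest lines, of 5150 and 4840, are bins 6200 and 206200.

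Sense bins were often neighbours. Each member has a neighbour on either side, and 45.7% of these 884 sides (a bin between 2 members being counted for each) faced a sense bin, while sense bins are 17.8% of all bins. Antisense bins stood on 10.3% of the sides and made up 18.6% of all bins. Bins read from both strands stood on 36.1% and made up 29.9%, and bins under the minimum stood on 7.92% and made up 33.7%. All bins as a base thus include many that seldom adjoin a member. Of the 1643 bins over the minimum, 26.9% were sense bins. The members formed 240 runs of adjacent bins, of which 164 were single bins, and 278 members lay in runs of 2 or more. The antisense bins formed 266 runs with a longest of 12 bins, and the bins read from both strands 388 runs with a longest of 9. In runs of 2 or more lay 296 of 460 antisense bins and 536 of 741 bins read from both strands. Adjacency was thus not particular to the sense bins. Runs of 5 or more numbered 10 among the antisense bins (66 bins) and 22 among the bins read from both strands (128 bins). Among the sense bins 16 runs had 5 or more bins, and 10 of these lay between 73000 and 88999, with 69.1% of the 136 bins in such runs.

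The longest run covered 19 bins from 81000 to 82899. Its sense level was 18908.5 in BX2theta, 18513 in BX2* and 15353 in BX2OFF, with antisense levels of 986, 894 and 967 in the same order of libraries. The sense strand thus gave 95.1%, 95.4% and 94.1% of its reads. Single bins of the run ranged from a level of 43.5 to 3292 and from a sense share of 83.1% to 99.5%. The second run, 14 bins from 75100 to 76499, had sense levels of 5939 in BX2theta, 7575 in BX2* and 7271 in BX2OFF, and sense shares of 93.3%, 92.5% and 92.9%. The third, 13 bins from 84700 to 85999, had sense levels of 2888, 3455 and 3477 and shares of 92.2%, 92.7% and 93.2%. Each of these runs had a bin read from both strands at either end. When 1 missing bin was bridged, the longest run grew to 45 bins from 79300 to 83799, 41 of them members. The next run outside this region, 11 bins from 184400 to 185499, was less even across libraries, with sense levels of 3361 in BX2theta, 8724 in BX2* and 5686 in BX2OFF.

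Of the 10 highest members, 4 lay near the start of the sequence (bins 6100, 6200, 9700 and 12500), 3 between 73000 and 88999 and 3 between 200000 and 209999. The highest, bin 6200, had a sense level of 4013 in BX2theta, 4740 in BX2* and 4996 in BX2OFF, with antisense levels of 558, 461 and 682. Its leading sense 5′ position, 6234, gave 64.9% of its sense reads, and was the leading position in all 3 libraries. Next to it, bin 6100 had sense levels of 2683, 3938 and 3549 in BX2theta, BX2* and BX2OFF and hardly any antisense reads (43.01, 39.99 and 42.2). Its leading position, 6193, gave 76.45% of its sense reads. The antisense reads of this pair of bins lay almost wholly in bin 6200.

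Several of the highest bins rested on single 5′ positions. Bin 12500 had sense levels of 2379, 3353 and 2775 in BX2theta, BX2* and BX2OFF, and position 12504 gave 95.5% of the sense reads. Bin 200300 had sense levels of 2291, 2730 and 1968, and position 200375 gave 95.7%. Bin 9700 had 2409, 2158 and 3455, and position 9776 gave 96.9%. In contrast, the high bins of the region between 73000 and 88999 were filled by many positions: in bin 78500 (sense levels 3741, 3519 and 2858) the leading position 78598 gave 42.5%, in bin 81900 (3347, 4011 and 2468.5) position 81937 gave 26.7% and in bin 81700 (3480, 3342 and 2356) position 81751 gave 15.8%. In these 3 bins BX2OFF was the lowest library.

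The remaining bins of the 10 changed their leading position between libraries. Bin 206200 had a sense level of 1394 in BX2theta, 7730 in BX2* and 4474 in BX2OFF. Position 206210 had a level of 20.5 in BX2theta against 1796 in BX2* and 1111 in BX2OFF, and position 206239 had 167, 2345 and 1091. Position 206223 ran the other way, with 192 in BX2theta against 1.81 in BX2* and 1.38 in BX2OFF. In bin 204000 (sense levels 2073, 3327 and 2528), position 204060 had 993 in BX2theta, 153 in BX2* and 925 in BX2OFF, while position 204074 had 142, 1018 and 220.5. The 10 bins' sense shares had Wilson intervals of at most 0.873 points to either side in each library, and 9 of the 10 met the rule in all 3 libraries. The exception, bin 200300, had a sense share of 74.5% in BX2OFF, against 77.2% in BX2theta and 85.3% in BX2*.

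**Figure D2:**
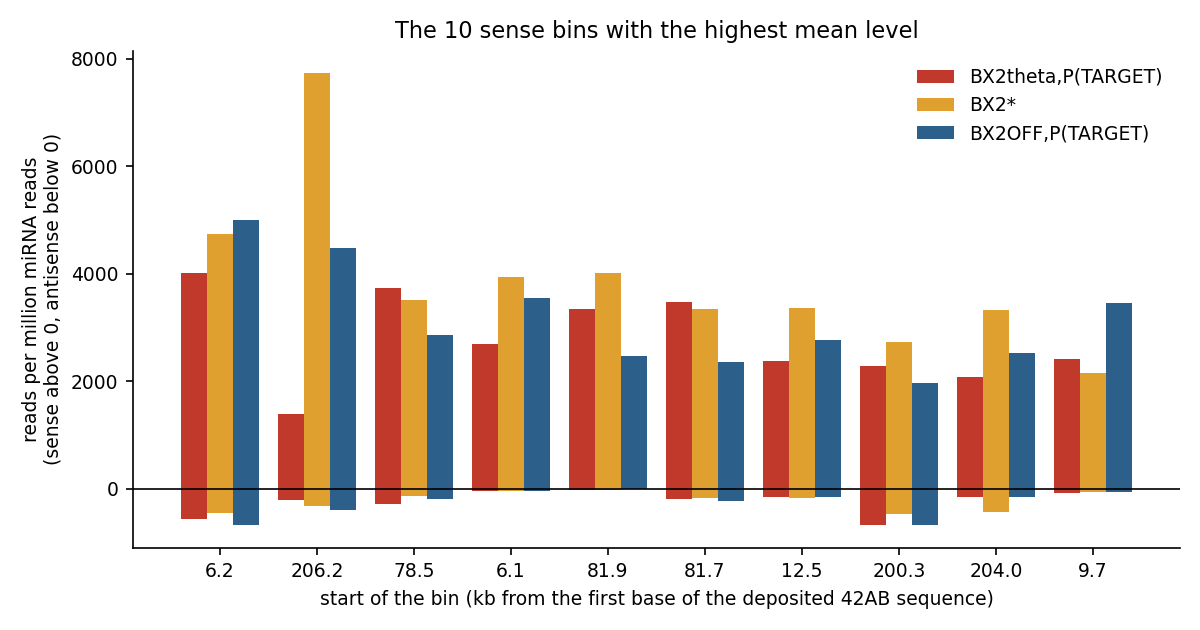
Levels of the 10 highest sense bins, in order of their mean, in each library, in RPM. Bars above 0 are sense reads and bars below 0 antisense reads. Bin 206200 is low in BX2theta (1394) and high in BX2* (7730), while bin 6200 varies little between libraries (4013 to 4996).

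Concentration on 1 position was common among the members. Over the summed libraries the leading position gave a median of 33.9% of a member's sense reads, with 17.3% at the 10th and 76.5% at the 90th percentile. In 129 members (29.2%) it gave 50% or more, against 138 of 460 antisense bins (30.0%, antisense reads) and 126 of 741 bins read from both strands (17%, sense reads). The leading position was the same in all 3 libraries in 275 of the 442 members (62.2%).

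The strand preference lay in read numbers more than in the number of positions used. Since the rule counted reads and not positions, this follows in part from the choice of bins. A member had a median of 37 occupied sense positions and 20 antisense positions in BX2theta, 38 and 20 in BX2*, and 38 and 20 in BX2OFF. Sense positions were 64.25%, 64.6% and 64.85% of all occupied positions in the members in BX2theta, BX2* and BX2OFF. They held on average 40.7, 50.9 and 39.4 reads each, against 8.15, 8.015 and 7.76 reads at each antisense position. Only 106 bins would have been selected if each position had counted once.

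The members were chosen on the mean of these 3 libraries. How often a single library met the rule, and how low its sense share fell, thus follow in part from that choice. The rule was met in 391 members by BX2theta alone, in 417 by BX2* alone and in 408 by BX2OFF alone, and in 355 (80.3%) by each of the 3. Of the others, 64 met it in 2 libraries and 23 in 1, and none in 0. The largest loss by level was in BX2theta, where 21 members were under 10, against 3 in BX2* and 7 in BX2OFF. The sense share of a member ranged over a median of 4.45 points between its highest and lowest library, and over less than 10 points in 362 members. No member fell under a sense share of 50% in any library. The widest ranges were in bins with few reads in 1 library: bin 194500 had 1 sense and 1 antisense read in BX2theta (50%), against 100% sense in BX2* (518 reads) and BX2OFF (255 reads). Ranges were also wide in some deeper bins. Bin 201200 had a sense share of 65.5% in BX2theta (762 sense and 401 antisense reads), 95.7% in BX2* (3996 and 178) and 86.6% in BX2OFF (1763 and 273).

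Although chosen for few antisense reads, the members had a peak at the 10 nt overlap of the ping-pong cycle. For each sense 5′ position in a member and the antisense 5′ position at a given overlap, the smaller of the 2 read numbers was taken as the number of pairs, over overlaps of 1 to 26 nt. At 10 nt there were 36930 pairs in BX2theta, 37664 in BX2* and 33248 in BX2OFF. The other overlaps averaged 17089, 15782 and 15504 pairs, so that pairs at 10 nt were 2.16, 2.39 and 2.14 times as many. Over the summed libraries this ratio of 2.23 became 1.05 when each pair of positions was counted once and 22.6 with the product of the read numbers, so its size depends on how abundant positions are weighted. The pairs include reads of every length, of which 92.8 to 94.1% in the cluster were 23 to 29 nt long, as piRNAs are, and 2.25 to 3.67% were 21 nt long, the size of siRNAs. It was the highest overlap in all 3 libraries, and the next, at 23 or 24 nt, had 19473, 18565 and 18350 pairs. The same ratio was 1.95, 2.05 and 2.02 for sense reads in the antisense bins, and 2.45, 2.59 and 2.42 in the bins read from both strands. Not every member had an excess at 10 nt. Members with 26 or more pairs over all overlaps numbered 401 in BX2theta, 403 in BX2* and 409 in BX2OFF. Of these, 280, 274 and 266 had more pairs at 10 nt than the mean of the other overlaps.

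Few of the members' sense reads, but many of their antisense reads, could be paired in this way. Pairs at 10 nt were 5.51, 4.41 and 5.02 per 100 sense reads of the members in BX2theta, BX2* and BX2OFF. Per 100 antisense reads of the members, pairs with sense reads were 42.4, 43.9 and 39.9. In the bins read from both strands the same value per 100 antisense reads was 21.5, 20.7 and 20.15. The antisense bins mirrored the members. They had 37.45, 37.3 and 36.9 pairs per 100 of their sense reads and 5.22, 4.23 and 5.37 per 100 of their antisense reads. The contrast was thus not particular to the sense bins. Since the members were selected for few antisense reads, the height of their values follows in part from the rule. The place of the peak at 10 nt uses no measure of the rule. Counted by reads instead of pairs, 62.1%, 62.2% and 62.4% of the members' sense reads had at least 1 antisense read at 10 nt in BX2theta, BX2* and BX2OFF. At 9 nt this was 36.8%, 34.6% and 32.2%, and at 11 nt 38.4%, 34.9% and 35.0%. The other bins were alike at 10 nt. A partner was found for 62.3%, 61.1% and 60.85% of the antisense reads of the antisense bins. For sense reads of the bins read from both strands it was 65.4%, 67.6% and 64.75%.

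**Figure D3:**
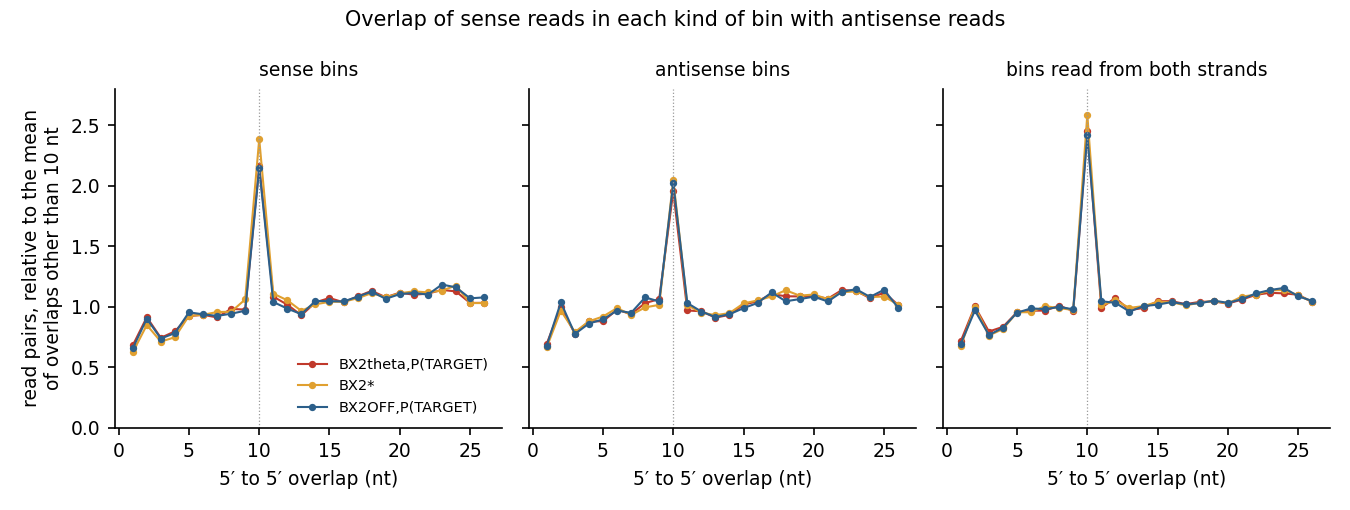
Read pairs at each 5′ to 5′ overlap from 1 to 26 nt, divided by the mean over overlaps other than 10 nt, for sense reads that start in sense bins, antisense bins and bins read from both strands, with 1 line per library. Each panel has 1 peak, at 10 nt, of 2.14 to 2.39 in the sense bins.

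The leading positions showed the same overlap. In 182 members (41.2%) the leading sense position had an antisense partner at 10 nt in all 3 libraries, against 55 members for a partner at 9 nt and 60 at 11 nt. In 164 members it had no partner at 10 nt in any library. Among these were high bins: positions 81937 and 81751, the leading positions of bins 81900 and 81700, had 0 antisense reads at 10 nt in all 3 libraries. The pairs were also concentrated, with 20.2% of the 107842 pairs in 5 members and 57.4% in 44. Without those 5 members the ratio over the summed libraries was 1.82 instead of 2.23.

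Those 5 members were bins 200500, 200300, 6100, 174900 and 74100. In bin 200500, position 200598 had 4528 sense reads in BX2theta, 5276 in BX2* and 3197 in BX2OFF, and its antisense partner at 200607 had 2193, 1499 and 1755 reads. The partner lay in the next bin, since bin 200500 itself had only 89, 66 and 56 antisense reads. Bin 6100 was alike, with 8939, 11760 and 8908 sense reads at 6193 and 1442, 1178 and 1800 antisense reads at 6202, in bin 6200. In bin 174900 the partner outnumbered the leading position: position 174996 had 1188 sense reads in BX2theta, 1749 in BX2* and 1043 in BX2OFF, against 2486, 4825 and 3583 antisense reads at 175005. In bins 200300 and 74100 both partners lay within the bin, with 8702, 10099 and 6828 sense reads at 200375 and 1646, 954 and 1576 antisense reads at 200384, and with 2228, 3398 and 2350 sense reads at 74125 and 852, 977 and 650 antisense reads at 74134. All 5 leading positions were the same in the 3 libraries.

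Along the sense strand, the distances between 5′ positions in the members were not even. Between 10 and 30 nt, pairs of sense positions were fewest at 22 nt in all 3 libraries, and they were more frequent from 24 to 29 nt. The mean over 24 to 29 nt was 1.1 times that over 17 to 22 and 31 to 36 nt in BX2theta, 1.24 times in BX2* and 1.17 times in BX2OFF. These windows were chosen after the values were seen. Between 20 and 40 nt the highest distance was 27 nt in BX2theta and 29 nt in BX2* and BX2OFF, while the shortest distances, from 1 nt, had more pairs. When each pair of positions was counted once, whatever its reads, the ratio was 1.03, 1.02 and 1.02, so the excess lay in abundant positions. For comparison, the antisense reads of the antisense bins gave 1.24, 1.25 and 1.21, and the sense reads of bins read from both strands 1.16, 1.16 and 1.16.

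Single pairs of positions added to sharp peaks at some distances. At 41 nt the ratio was 1.16 in BX2theta, 1.235 in BX2* and 1.195 in BX2OFF, and the pair 6193 and 6234, the leading positions of bins 6100 and 6200, gave 17.4%, 20.6% and 19.6% of the pairs. Without this pair the ratios were 0.957, 0.980 and 0.961. At 57 nt the pair 204346 and 204403 gave 6.25%, 16.6% and 10.55%, and without it the ratios of 1.07, 1.26 and 1.14 became 1.005, 1.05 and 1.02. At 29 nt the pair 206210 and 206239 gave 12.05% in BX2* and 8.37% in BX2OFF, and without it the ratios of 1.36 and 1.24 became 1.20 and 1.14.

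**Figure D4:**
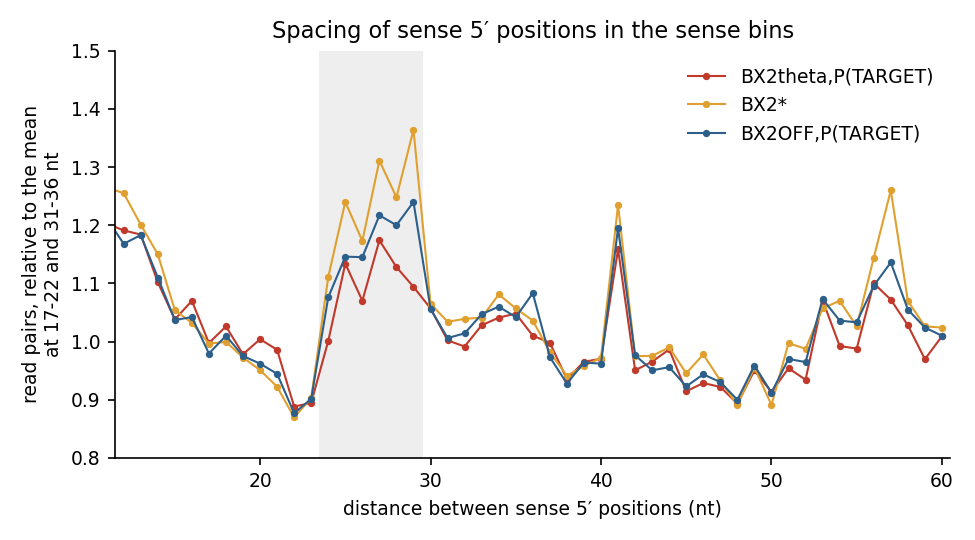
Pairs of sense 5′ positions in the sense bins by their distance, from 12 to 60 nt, divided by the mean at 17 to 22 and 31 to 36 nt, with 1 line per library. The shaded window of 24 to 29 nt lies above 22 nt in every library, and the peak at 41 nt comes from 1 pair of positions. The y axis does not start at 0.

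Between genotypes, the members' levels were alike for most bins. The ratio was taken as log2 of both levels plus a pseudocount of 1, over both strands. The ratio of BX2theta over BX2OFF had a median of -0.16 in the members and -0.19 in all 1643 bins. For BX2* over BX2OFF these medians were 0.10 and 0.05, and for BX2theta over BX2* -0.22 and -0.18. Each median of the members lay close to that of all bins. Scaling the libraries to their 42AB totals moved the median of all bins by 0.11, -0.17 and 0.28 in these comparisons. It brought the members' median to -0.0493 for BX2theta over BX2OFF. It reversed the sign of the others, to -0.0594 for BX2* over BX2OFF and 0.0575 for BX2theta over BX2*. Ranks of the members' levels were close, with Spearman's rho of 0.95 for BX2theta and BX2OFF, 0.96 for BX2* and BX2OFF and 0.92 for BX2theta and BX2* over 442 bins, which share their sequence and its mappability. The comparisons share libraries and are not independent.

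Some members stood apart by more than 2-fold. Against BX2OFF, 3 members were higher and 29 lower in BX2theta, while 0.304% and 4.5% of the 1643 bins were. In BX2* 26 members were higher than in BX2OFF and 11 lower, beside 5.05% and 7.18% of all bins. Against BX2*, 5 members were higher and 62 lower in BX2theta, beside 2.5% and 10.9% of all bins. As shares of the members these counts were 0.679% and 6.56%, 5.88% and 2.49%, and 1.13% and 14%, the first of each pair being the higher members. The counts depend in part on how the members were chosen. The level minimum was reached in 1 library only by 5 members, in BX2* by 4 of them, in BX2theta by 1 and in BX2OFF by 0. These became members through the library in which they were high, and they were not left out of the counts. With 1 library per genotype these shares have no test.

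Of the 29 members that were lower in BX2theta than in BX2OFF, 13 lay in 1 stretch of 1600 bp, bins 193600 to 195100, which was nearly empty in BX2theta. It held 153 reads in BX2theta, 13215 in BX2* and 7690 in BX2OFF, or levels of 38.7, 3409.5 and 2122. The BX2theta level was 54.8 times lower than that of BX2OFF (interval 46.7 to 64.8) and 88.1 times lower than that of BX2* (75.1 to 104). All 13 bins of the stretch over the minimum were members, and they were also the only bins of the cluster's 1643 with under 10% of the BX2OFF level in BX2theta. The stretch was picked for this, so its ratio is a description.

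Its reads were almost all sense. Antisense reads numbered 9 in BX2theta, 18 in BX2* and 12 in BX2OFF, in contrast to 13197 sense reads in BX2* and 7678 in BX2OFF. The highest bin, 194100, had a level of 10.1 in BX2theta (40 reads), 1221 in BX2* (4734 reads) and 621 in BX2OFF (2250 reads). Bin 193800 had 4.30, 654 and 437 (17, 2533 and 1583 reads), bin 193600 had 4.30, 548 and 331 (17, 2123 and 1198 reads) and bin 193700 had 0.759, 119 and 99.1 (3, 460 and 359 reads). In bin 193700 the BX2OFF level was 130.5 times the BX2theta level, with a counting interval of 44.3 to 636 from those 3 reads. The leading sense positions of these bins were 194119, 193834, 193688 and 193749. Sense reads began at 69 positions in BX2theta, 502 in BX2* and 442 in BX2OFF, and 58 of the 69 positions were also used in BX2OFF.

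The bins around the stretch did not share this difference. The 1 kb from 192400 to 193399 had levels of 1347 in BX2theta, 1519 in BX2* and 1518 in BX2OFF, mostly antisense (1125, 1345.5 and 1329). Then came 2 bins with no read in any library, and the stretch began. The 1 kb from 195200 to 196199 had 799, 1431 and 849.5, again mainly antisense (544, 934 and 506). Bin 195300, the first member after the stretch, had levels of 79.4 in BX2theta, 117 in BX2* and 77.0 in BX2OFF. Without the stretch, 16 of 429 members were lower in BX2theta than in BX2OFF (3.73%), beside 3.74% of the 1630 bins outside it, and 49 were lower than in BX2* (11.4%, beside 10.2%). What differs between the lines at this place was not tested.

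**Figure D5:**
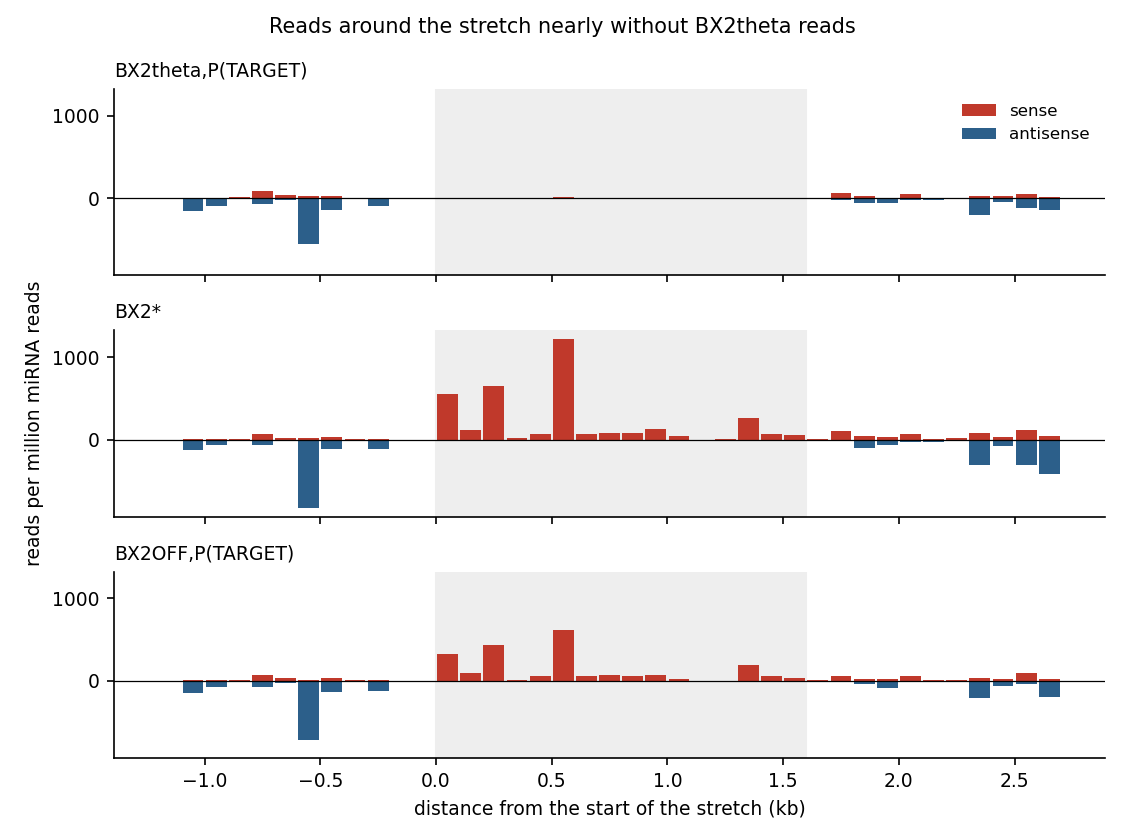
Level of each 100 bp bin around the stretch, in RPM, with sense reads above 0 and antisense reads below, in BX2theta, BX2* and BX2OFF from top to bottom. The shaded stretch of 1600 bp sums to 38.7 in BX2theta, 3409.5 in BX2* and 2122 in BX2OFF, while reads of all 3 libraries lie on both sides, on the left beyond 2 empty bins.

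Outside the stretch the largest differences were in smaller groups of bins. The largest decreases of BX2theta against BX2OFF were all in the stretch (bins 193800, 193600 and 193700, log2 ratios of -6.37, -5.97 and -5.83). The 3 members that were higher in BX2theta than in BX2OFF were bins 242000, 82800 and 79600. Bin 242000 had 8.60 against 1.66 (34 and 6 reads, ratio 5.19, interval 2.16 to 15.1). It was under the level minimum in both libraries and became a member through BX2* alone. Bin 82800 had 63.8 against 29.0 (ratio 2.20, interval 1.745 to 2.79). Bin 79600 was the highest of the 3, with 2528 in BX2theta against 1215.5 in BX2OFF (ratio 2.08, 2.01 to 2.16) and leading position 79635. Its BX2* level lay between these, with a sense level of 1778.

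In BX2* the largest increases over BX2OFF were in bin 164400 (63.5 against 5.80, ratio 10.95), bin 242000 (21.7 against 1.66, 84 and 6 reads, ratio 13.1) and bin 207500 (246 against 55.5, ratio 4.43, 3.80 to 5.18). By log2 with the pseudocount these were 3.25, 3.09 and 2.13. Bins 164400 and 242000 reached the level minimum in BX2* alone, so they became members through the library in which they were high, and their ratios only describe that. Bin 164400 rested on 1 position, 164495, with a level of 62.95 in BX2*, 5.52 in BX2OFF and 1.52 in BX2theta. Bin 207500 (leading position 207521) ended a run of 4 adjacent members, from bin 207200, that were all past 2-fold in BX2*. The largest decreases were in bin 240900 (4.13 against 36.7, log2 ratio -2.88), bin 241000 (10.6 against 83.1, -2.86) and bin 97400 (186.5 against 797, -2.09). Bins 240900 and 241000 were low in BX2theta as well, with log2 ratios to BX2OFF of -1.76 and -2.25. In bin 97400 the leading position 97472 had 17.8 in BX2* against 582 in BX2OFF and 294 in BX2theta.

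Set against BX2*, BX2theta was higher in bin 28100 (34.2 against 12.6, log2 ratio 1.37), bin 97400 (466.5 against 186.5, 1.32) and bin 159900 (126 against 50.3, 1.31). The largest decreases were again in the stretch, in bins 193800, 194100 and 193600, with log2 ratios of -6.95, -6.78 and -6.69. Between 180000 and 199999, stretch included, 24 of 55 members were lower in BX2theta, and 42 of the 183 bins of any class over the minimum. Between 200000 and 209999 these counts were 12 of 49 members and 13 of 97 bins, and between 73000 and 88999 they were 6 of 115 members and 9 of 152 bins.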

How the data were processed

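Small RNAs of ovaries were sequenced by the authors and aligned, per the submitters' processing notes, with Bowtie2 2.0.3. The study's methods state that reads matching 1 place were used for such maps and that levels were scaled to 1000000 miRNA reads. The deposited 42AB values, a score signed by strand at each 5′ position, are reads times 1 factor per library, and 100% of them divided by it into whole reads (tolerance 0.01). A read-length table gave equal totals, so the 42AB values hold reads of 18 to 29 nt, whereas the study's maps and overlap counts took reads of 23 to 29 nt. No length is given for each position, so shorter reads could not be left out. No sample column was left out (0), and the 4 P(lacW) tables were not used.

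Members and lists were chosen with earlier results of these data known. Positions were taken as 5′ ends on both strands (overlap: antisense minus sense position plus 1). Bins named are the 10 highest, the 3 longest runs, 3 on each side of each limit, the 5 with most pairs at 10 nt and the 3 with the largest difference past 2-fold in each direction. Others named (bins 184400, 194500, 195300, 201200, 207200) were chosen after their values were seen. Intervals are Wilson or exact binomial (95%); reads without molecular identifiers are not independent molecules. With 1 library per genotype, no test across bins was possible. The scripts ran under Python 3.11.15 with scipy 1.17.1 and numpy 2.4.6, figures were drawn in matplotlib 3.10.9, and overlap and spacing counts were tested on simulated data. Alternatives covered bin size and start, limits, scaling, libraries, pseudocount, strand and pair counting. No sequence is printed, as the place of the deposited 42AB sequence on chromosome arm 2R is not given.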

Additional observations from a re-analysis of the deposited data

How the results depend on the processing

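With 1 library per genotype, no alternative has a test. A value was held to have moved when it left its 95% counting interval or, for a count, changed by over 1.5 times. For a median log2 ratio the limit was the median half-width of the members' own intervals. This was 0.142 for BX2theta over BX2OFF, 0.135 for BX2* over BX2OFF and 0.139 for BX2theta over BX2*. It is the interval of a typical bin, not of the median. Membership depended most on how positions were weighted: with each occupied position counted once, 106 bins were selected, holding 4.44% of the 42AB level, in place of 442 and 36.1%. With 50 bp bins there were 938 bins (39.4% of the level, 545 runs), with 200 bp bins 214 (33.5%, 106 runs, longest 12 bins), and a sense share of 0.90 left 211 (21.9%, 146 runs, longest 9, 144 meeting the rule in all 3 libraries). The share of the level was 35.9% with bins shifted by 50 bp, 45.8% at a sense share of 0.60, 35.75% at a level minimum of 50 and 36.11% on genome-matched scaling. Bin numbers scale with bin size. The bases covered were 46900 with 50 bp bins and 42800 with 200 bp bins, against 44200 in the main setting. Of the members' bases, 73.4% were shared by the 50 bp bins, 70.8% by the 200 bp bins and 62.4% by the shifted bins. Leaving out 1 library gave 431 to 458 bins and 35.65 to 37.2% of the level. Bridging 1 missing bin gave a longest run of 45.

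Over the summed libraries the 10 nt ratio was 2.23. It was 22.6 with the product of the read numbers, 1.05 with each pair of positions once, 2.09 with antisense reads of the same bin, 2.16, 2.39 and 2.14 in BX2theta, BX2* and BX2OFF alone, and 1.82 without 5 members (an alternative chosen after seeing the data, as was leaving out the stretch). The 24 to 29 nt ratio was 1.17, and 1.02 with each pair once.

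On the scale of genome-matched reads the members' median log2 ratio was 0.26 for BX2* over BX2OFF and -0.38 for BX2theta over BX2*. On that of the 42AB total these turned to -0.0594 and 0.0575, and the median for BX2theta over BX2OFF went from -0.16 to -0.0493. Past 2-fold, genome-matched scaling gave 41 members higher and 3 lower in BX2* than in BX2OFF (127 and 82 of all bins), and 3 higher and 86 lower in BX2theta than in BX2* (26 and 250). The 42AB total gave 15 higher and 21 lower in BX2* than in BX2OFF (53 and 174), and 15 higher and 44 lower in BX2theta than in BX2* (94 and 101). A pseudocount of 10 gave 1 member higher in BX2theta than in BX2OFF, 7 lower in BX2* than in BX2OFF and 2 higher in BX2theta than in BX2*. A level minimum of 1 gave 8 members higher in BX2theta than in BX2OFF and 8 higher than in BX2*. A minimum of 50 gave 1 higher and 18 lower in BX2theta than in BX2OFF, and 2 higher than in BX2*. Without the stretch 16 were lower in BX2theta than in BX2OFF. The causes were not tested. A bin at the minimum rests on 36.2 to 39.5 reads, so the strand shares and ratios of the lowest members are the least certain. No paired analysis was possible because each genotype has 1 library.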
